A study of Mus musculus with 14 samples.

Results

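The genotype by plasmid comparison asks whether the liver's transcriptional response to interleukin 13 (IL-13) differed between Alb-Cre and wild-type mice. It used every array of the series, 14 of 14, placed by title into 4 groups, and all 9711 named genes detected on at least 3 arrays. The quantity is a difference of responses, IL-13 minus EGFP in Alb-Cre livers minus IL-13 minus EGFP in wild-type livers. It is given in log2 units of normalised intensity, so 1 log2 unit is 1 doubling, and a positive value means a higher response in Alb-Cre livers.

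RNA of whole mouse liver was hybridised to Illumina BeadChips, 1 array per sample. The groups were Alb-Cre with an IL-13 plasmid (n = 3), Alb-Cre with an EGFP plasmid (n = 4), wild type with the IL-13 plasmid (n = 3) and wild type with the EGFP plasmid (n = 4). All 14 samples were taken 1 week after the plasmid was given by hydrodynamic delivery, a fast large-volume injection that brings DNA into hepatocytes. EGFP, a green fluorescent protein, served as the control cargo. The series title places Alb-Cre on a floxed Il4ra background, so that Cre recombinase under the albumin promoter would delete the receptor chain in hepatocytes. That promoter is also active in the fetal progenitors from which bile duct cells arise, so a deletion need not be confined to hepatocytes. The labels do not say whether the wild-type mice carried the floxed allele, they give no sex or age, and they leave unsaid whether every sample was a different mouse. The p-values therefore measure the spread between these samples, which may be technical in part. No probe with the symbol Il4ra was available, so the deletion itself was not analysed here.

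IL-13 acts through a receptor made of the IL-4 receptor alpha chain (Il4ra) and Il13ra1, which activates the transcription factor STAT6. In liver this receptor is present on hepatocytes and on macrophages, stellate cells and other non-parenchymal cells, and IL-13 is known as a driver of alternative macrophage activation and of fibrosis. Hepatocytes make bile acids, cholesterol and fatty acids and clear drugs, and these programmes are known to fall during liver inflammation.

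Sex-linked transcripts divided the arrays, and the division was not balanced over the groups. Eif2s3y, a translation factor gene of the Y chromosome, had 6.57, 6.62 and 6.32 log2 units in Alb-Cre IL-13 livers, between 4.15 and 4.18 in Alb-Cre EGFP livers, 4.16, 4.2 and 6.89 in wild-type IL-13 livers and between 4.15 and 4.22 in wild-type EGFP livers. Xist, which coats and silences an X chromosome, was low on just those 4 arrays with Eif2s3y, and Kdm5d, a Y-linked histone demethylase, was detected on them. The 3 Alb-Cre IL-13 arrays and wild-type IL-13 replicate 3 thus carried Y-linked RNA, and the other 10 arrays carried Xist. The main counts are therefore also given from a fit with this pattern as a term, called the sex-matched fit. Its estimate rests on wild-type IL-13 replicate 3 alone as the wild-type IL-13 arm. Alb-Cre IL-13 and Alb-Cre EGFP arrays share no pattern, and the sex-matched fit takes the effect of the pattern from the wild-type IL-13 arrays.

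Each array detected 11554 to 13261 of its 25697 probes, and mean intensities ran between 283.1 and 354. Arrays of 1 group correlated at 0.9798 to 0.9935 (Pearson, across the 9711 genes). The samples lay on 2 BeadChips, and each held all 4 groups. Hepatocyte RNA was plain on every array. Alb, the albumin gene, had 9.76, 9.38 and 9.72 log2 units in Alb-Cre IL-13 livers and 9.82, 9.96, 9.64 and 10.08 in Alb-Cre EGFP livers, against 8.54, 8.12 and 8.89 in wild-type IL-13 livers and 9.99, 9.59, 10.36 and 10.38 in wild-type EGFP livers. The wild-type IL-13 arrays were the lowest. In whole liver, fewer cells of a type and less RNA per cell cannot be told apart.

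The response to IL-13 differed between the genotypes for 1277 of 9711 genes, 13.2% (limma, adjusted p under 0.05). Of these, 646 (6.65%) had a higher response in Alb-Cre livers and 631 (6.5%) a lower one, and the difference was at least 2-fold for 271 and 231 of them. Under centring of each array on its median the split was 746 higher and 318 lower, so that 70.1% of calls were higher against 50.6% with quantile normalisation, and the authors' deposited log2 values gave 69.8%. The sex-matched fit called 890 genes (9.16%), 480 higher (4.94%) and 410 lower (4.22%). It shared 667 calls with the 1277, and no gene was called in opposite directions. List counts given below for the sex-matched fit are its own calls, not all of them among the 1277. A fit with BeadChip as a block called 1345, the first BeadChip alone called 226 and the second alone 597. Each BeadChip alone leaves 1 or 2 arrays per group. On the first, both Alb-Cre IL-13 arrays carried Y-linked RNA and both wild-type IL-13 arrays Xist. On the second, wild-type IL-13 replicate 3 is the only array of its group, the array on which the sex-matched fit also rests. BeadChip values below are therefore not support separate from the sex-linked pattern or from the sex-matched fit.

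**Figure D1:**
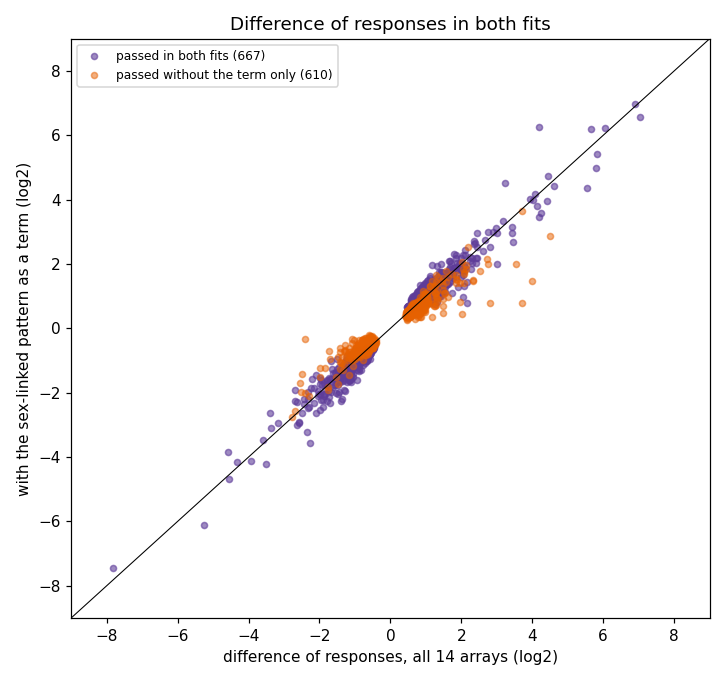
Difference of responses (log2) of the 1277 called genes in the fit of all 14 arrays (horizontal axis) and in the sex-matched fit (vertical axis), 1 point per gene, with the line of equality. All 1277 kept their sign, and the 667 genes called in both fits lie at both ends as well as near 0.

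The responses that make up this difference were of unequal extent. In Alb-Cre livers 1840 genes (18.9%) passed for IL-13 against EGFP, 1080 risen (11.1%) and 760 fallen (7.83%). In wild-type livers 3952 genes (40.7%) passed, 2090 risen (21.5%) and 1862 fallen (19.2%). Alb-Cre against wild type gave 2130 genes (21.9%) under IL-13 and 0 genes (0%) under EGFP in limma, where 364 genes had an unadjusted p under 0.05 and the smallest adjusted p was 0.839. These contrasts share arrays with the difference of responses and are set beside it as its parts. All Alb-Cre IL-13 arrays carried Y-linked RNA and all Alb-Cre EGFP arrays Xist. No Alb-Cre response given here can therefore be told apart from the sex-linked pattern. Both EGFP groups carried Xist alone, while the IL-13 groups differed in the pattern. Among the 646 genes with a higher Alb-Cre response, the median response was -0.03 in Alb-Cre livers and -0.91 in wild-type livers. Among the 631 with a lower one it was 0.05 in Alb-Cre livers and 0.88 in wild-type livers. Over all 9711 genes the median difference was -0.01.

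**Figure D2:**
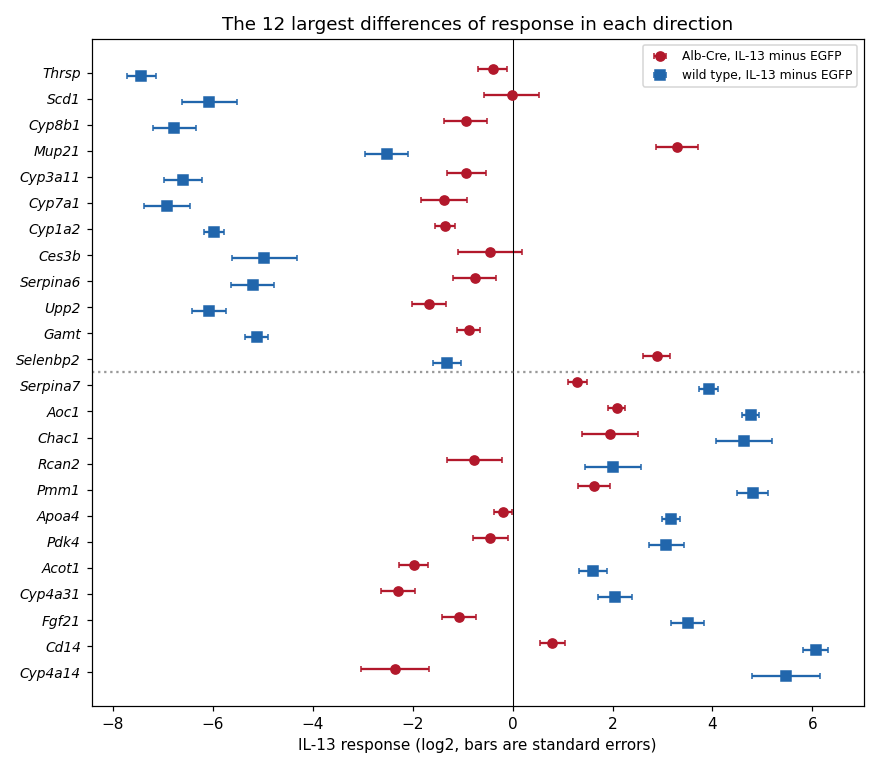
IL-13 response (log2, IL-13 minus EGFP, bars are standard errors) in Alb-Cre (red circles) and wild-type livers (blue squares) for the 12 most positive differences of response above the dotted line and the 12 most negative below it. In all 12 upper genes the wild-type response lies below 0, and of these only Mup21 and Selenbp2 have an Alb-Cre response above 0.

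The 2 most positive differences among genes detected in every group lay in lipogenesis. Thrsp, a regulator of fatty acid synthesis, had 10.92, 11.40 and 12.38 log2 units in Alb-Cre IL-13 livers and 11.64, 12.49, 11.83 and 11.91 in Alb-Cre EGFP livers, against 4.78, 4.71 and 5.45 in wild-type IL-13 livers and 12.31, 12.02, 12.78 and 12.53 in wild-type EGFP livers. The wild-type IL-13 arrays lay far below the other 11, which overlapped. Its difference of responses was 7.03 ± 0.42 (SE, adjusted p = 1.43e-07), from -0.40 in Alb-Cre livers and -7.43 in wild-type livers. Scd1, the desaturase that makes oleic acid, had 12.93, 9.44 and 12.50 log2 units in Alb-Cre IL-13 livers and 11.80, 11.80, 11.56 and 11.43 in Alb-Cre EGFP livers, against 5.82, 6.16 and 5.69 in wild-type IL-13 livers and 11.68, 11.72, 12.47 and 11.96 in wild-type EGFP livers. Alb-Cre IL-13 replicate 2 was lowest in its group and still above every wild-type IL-13 array. Scd1 differed by 6.05 ± 0.78 (SE, adjusted p = 0.000122).

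Of 21 measured genes of fatty acid and triglyceride synthesis, 12 had a higher response in Alb-Cre livers and 0 a lower one (9 and 0 in the sex-matched fit). Their median difference was 1.25, with 1.13 on the first BeadChip and 1.79 on the second. In Alb-Cre livers 1 rose and 4 fell, and in wild-type livers 0 rose and 17 fell. Elovl6, which elongates palmitate, responded by 0.11 in Alb-Cre livers and -3.90 in wild-type livers, a difference of 4.01 ± 0.47 (SE, adjusted p = 5.48e-05). Srebf1, the transcription factor of the fatty acid programme, responded by -0.50 in Alb-Cre livers and -3.50 in wild-type livers, a difference of 3.00 ± 0.28 (SE, adjusted p = 5.49e-06). Mlxipl, which encodes the glucose-responsive factor ChREBP, differed by 1.75 ± 0.23 (SE, adjusted p = 0.000166). Fasn, fatty acid synthase, differed by at least 0.81 with wild-type IL-13 undetected and did not pass (adjusted p = 0.0563). It passed without Alb-Cre IL-13 replicate 2, Alb-Cre EGFP replicate 2 or wild-type EGFP replicate 2 (adjusted p 0.0103 to 0.0484).

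Cholesterol synthesis also had higher responses in Alb-Cre livers. Of 5 measured enzymes of the mevalonate arm, which runs up to farnesyl diphosphate, all 5 had a higher response in Alb-Cre livers, with a median difference of 2.13 (2.21 on the first BeadChip and 1.99 on the second). Of 10 measured post-squalene enzymes, 9 had a higher response, with a median of 2.21 (2.38 and 1.86). In Alb-Cre livers 1 of these 15 genes rose and 0 fell, and in wild-type livers 0 rose and 14 fell. The sex-matched fit called 3 of the 5 and 5 of the 10 higher, and none lower.

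Dhcr7, the last reductase of the pathway, had 8.95, 7.33 and 8.35 log2 units in Alb-Cre IL-13 livers and 7.81, 8.09, 8.31 and 8.03 in Alb-Cre EGFP livers, against 5.29, 6.19 and 5.53 in wild-type IL-13 livers and 8.52, 8.45, 8.61 and 8.45 in wild-type EGFP livers. Every wild-type IL-13 array lay below every other array. Dhcr7 differed by 2.99 ± 0.40 (SE, adjusted p = 0.000153). Pmvk, phosphomevalonate kinase, differed by 2.39 ± 0.35 (SE, adjusted p = 0.000348), Tm7sf2, a sterol reductase, by 2.09 ± 0.31 (SE, adjusted p = 0.000426), and Sc5d, a sterol desaturase, by 1.98 ± 0.24 (SE, adjusted p = 7.88e-05). Idi1, the isopentenyl diphosphate isomerase, differed by 2.08 ± 0.45 (SE, adjusted p = 0.00704) and Mvd, mevalonate diphosphate decarboxylase, by 1.93 ± 0.38 (SE, adjusted p = 0.00351). Hmgcs1, which makes HMG-CoA, had 13.90, 12.67 and 13.41 log2 units in Alb-Cre IL-13 livers and 12.84, 12.74, 13.24 and 12.70 in Alb-Cre EGFP livers, against 10.24, 12.40 and 11.74 in wild-type IL-13 livers and 13.34, 12.89, 13.17 and 13.16 in wild-type EGFP livers. Wild-type IL-13 replicate 1 was far below replicates 2 and 3, and the difference of 2.13 ± 0.53 (SE, adjusted p = 0.0152) did not pass in the sex-matched fit (1.85, adjusted p = 0.104). Sqle, squalene epoxidase, also spread widely, with 6.18, 9.95 and 9.19 in wild-type IL-13 livers. It differed by 2.74 ± 0.85 (SE, adjusted p = 0.0456) and by 1.99 in the sex-matched fit (adjusted p = 0.268). Leaving out 1 array ended the call for Sqle in 10 of 14 fits, with differences of 2.36 to 2.88 and adjusted p up to 0.104, and without wild-type IL-13 replicate 1 the difference was 1.61 and passed (adjusted p = 0.0214).

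Of 9 measured sterol uptake and regulatory genes, 4 had a higher response in Alb-Cre livers and 0 a lower one (1 and 0 in the sex-matched fit). Insig1, which holds the sterol sensor in the endoplasmic reticulum, differed by 1.99 ± 0.39 (SE, adjusted p = 0.00325), and 2 of its 4 probes passed. Stard4, a cholesterol carrier, differed by 1.55 ± 0.36 (SE, adjusted p = 0.0103), and Scap, that sterol sensor, by 0.86 ± 0.21 (SE, adjusted p = 0.0149). Neither passed in the sex-matched fit.

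Bile acid synthesis had members in both directions. Cyp7a1, whose hydroxylase limits the classic bile acid pathway, had 11.68, 9.56 and 11.03 log2 units in Alb-Cre IL-13 livers and 11.74, 12.08, 12.19 and 12.49 in Alb-Cre EGFP livers, against 4.31, 5.27 and 6.54 in wild-type IL-13 livers and 12.57, 11.81, 12.34 and 12.44 in wild-type EGFP livers. No wild-type IL-13 array reached any other array. Its difference was 5.55 ± 0.65 (SE, adjusted p = 5.48e-05), and 4.38 in the sex-matched fit. Cyp8b1, the 12-alpha-hydroxylase that sets the share of cholic acid, had 11.89, 9.49 and 11.89 log2 units in Alb-Cre IL-13 livers and 12.03, 12.07, 12.05 and 11.97 in Alb-Cre EGFP livers, against 4.61, 5.64 and 5.73 in wild-type IL-13 livers and 12.39, 11.94, 12.04 and 12 in wild-type EGFP livers, again with the wild-type IL-13 arrays apart. It differed by 5.83 ± 0.61 (SE, adjusted p = 1.73e-05). Cyp27a1, of the acidic pathway, differed by 1.52 ± 0.35 (SE, adjusted p = 0.00939) and did not pass in the sex-matched fit (1.11, adjusted p = 0.11). Across 17 measured genes, 6 had a higher and 3 a lower response in Alb-Cre livers (4 and 2 in the sex-matched fit), with a median difference of 0.09. The called share was 52.9% against 13.2% of all genes, and 35.3% against 9.16% in the sex-matched fit. Ch25h, the cholesterol 25-hydroxylase of macrophages, was one of the 3. It was undetected in both EGFP groups, and under IL-13 its level was -2.16 log2 units in Alb-Cre against wild-type livers (adjusted p = 3.65e-09).

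Among 18 bile acid and sterol transporters and regulators, 1 had a higher and 3 a lower response, 22.2% against 13.2% of all genes. In the sex-matched fit 0 were higher and 2 lower, a share of 11.1% that is near the 9.16% of all genes. Abcb11, the bile salt export pump, responded by -1.13 in Alb-Cre livers and -2.99 in wild-type livers, a difference of 1.86 ± 0.42 (SE, adjusted p = 0.00918) that did not pass in the sex-matched fit. Slc10a1, which takes up bile acids, differed by 0.014 (95% interval -0.56 to 0.59, adjusted p = 0.984), and Nr1h4, the bile acid receptor FXR, by -0.012 (95% interval -0.40 to 0.37, adjusted p = 0.979). Neither passed, and both intervals include 0. Gpbar1, a bile acid receptor of non-parenchymal cells, was undetected under EGFP. Under IL-13 it was -1.03 in Alb-Cre against wild-type livers (adjusted p = 2.1e-05).

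**Figure D3:**
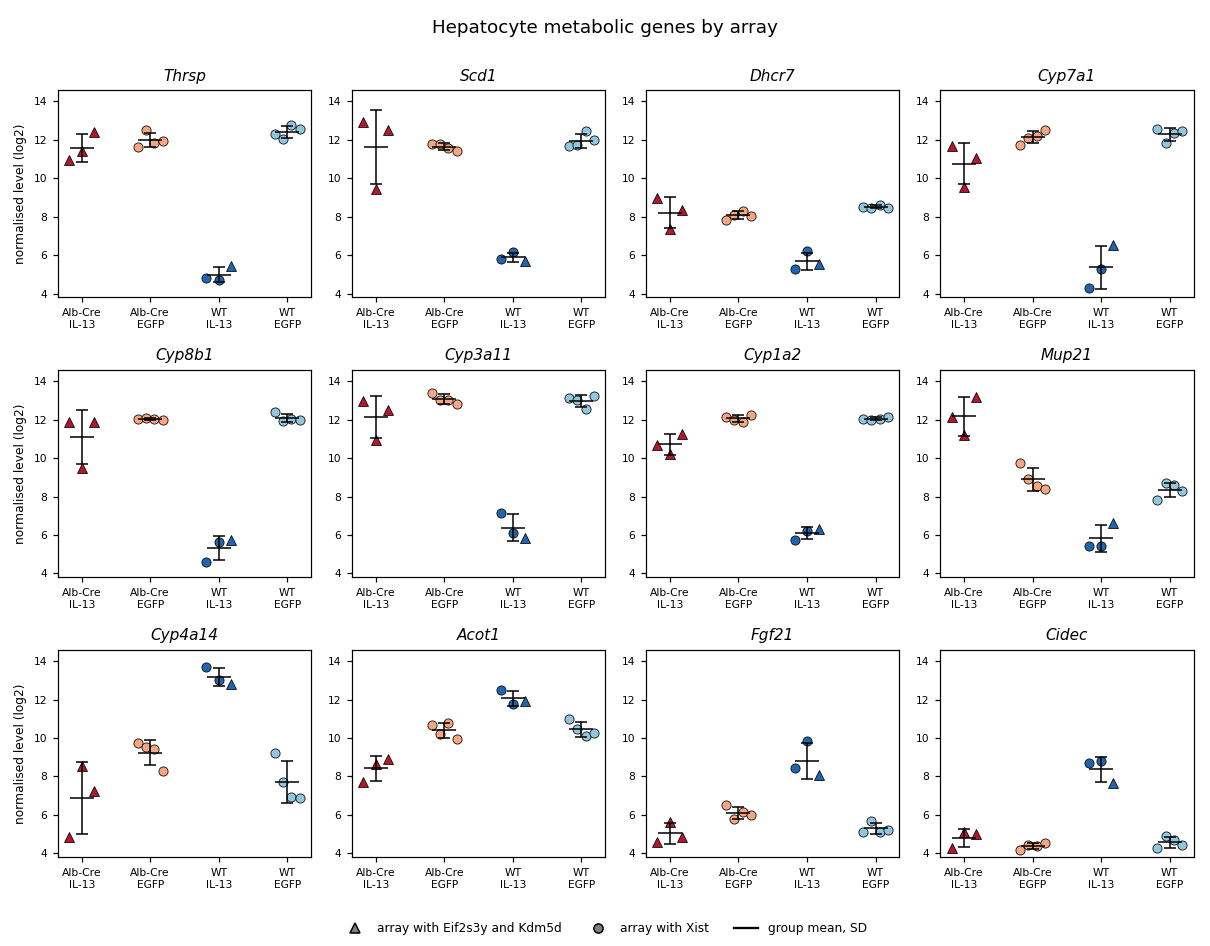
Normalised level (log2) of 12 hepatocyte genes on each of the 14 arrays by group, with Alb-Cre left of wild type and IL-13 left of EGFP. Triangles are arrays with Y-linked RNA, circles arrays with Xist, and bars the group mean and SD. In the first 8 panels the wild-type IL-13 arrays lie below the other groups, and in the last 4 they lie above them.

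Of 40 measured cytochrome P450 and phase II genes, 15 had a higher response in Alb-Cre livers and 1 a lower one (12 and 1 in the sex-matched fit), with a median difference of 0.50 (0.31 and 0.99 on the BeadChips). In Alb-Cre livers 2 rose and 10 fell, and in wild-type livers 3 rose and 28 fell. Cyp3a11, a main drug-oxidising enzyme of mouse liver, had 12.96, 10.92 and 12.52 log2 units in Alb-Cre IL-13 livers and 13.40, 13.03, 13.02 and 12.79 in Alb-Cre EGFP livers, against 7.16, 6.13 and 5.85 in wild-type IL-13 livers and 13.11, 13.01, 12.55 and 13.21 in wild-type EGFP livers. It differed by 5.67 ± 0.54 (SE, adjusted p = 7.06e-06). Cyp1a2, which oxidises caffeine and aromatic amines, had 10.70, 10.19 and 11.25 log2 units in Alb-Cre IL-13 livers and 12.14, 11.96, 11.90 and 12.24 in Alb-Cre EGFP livers, against 5.72, 6.23 and 6.29 in wild-type IL-13 livers and 12.04, 11.97, 12.05 and 12.16 in wild-type EGFP livers. The 4 groups fell into 3 levels, with Alb-Cre IL-13 between the EGFP groups and wild-type IL-13. Cyp1a2 fell in both genotypes, by 1.35 in Alb-Cre livers and by 5.98 in wild-type livers, and the difference was 4.63 ± 0.28 (SE, adjusted p = 1.43e-07). Cyp1a2 is also one of the male-biased genes counted below, and it differed by 4.42 in the sex-matched fit.

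Cyp2c29 differed by 4.07 ± 0.35 (SE, adjusted p = 3.15e-06), and 1 of its 2 probes passed. Cyp2b10, the target of the receptor CAR, had 8.96, 5.25 and 8.64 in Alb-Cre IL-13 livers and 7.73, 10.63, 9.56 and 9.53 in Alb-Cre EGFP livers, against 4.32, 4.23 and 4.36 in wild-type IL-13 livers, all undetected, and 9.09, 10.02, 9.68 and 10.23 in wild-type EGFP livers. Alb-Cre IL-13 replicate 2 lay far below replicates 1 and 3. The difference was at least 3.55 (adjusted p = 0.026), 1 of 2 probes passed, and the sex-matched fit did not call it. Neither did the fits without Alb-Cre IL-13 replicate 1 or 3, wild-type IL-13 replicate 2 or wild-type EGFP replicate 4 (adjusted p 0.0504 to 0.0784). Sult2a8, a bile acid sulfotransferase, was likewise undetected in wild-type IL-13 livers and differed by at least 3.68 (adjusted p = 0.000557).

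Other hepatocyte enzymes and carriers were among the largest differences. Car3, a carbonic anhydrase and one of the hepatocyte markers, abundant in liver and muscle, had 11.04, 10.24 and 12.63 log2 units in Alb-Cre IL-13 livers and 12.74, 12.28, 11.79 and 12.37 in Alb-Cre EGFP livers, against 4.31, 4.30 and 4.19 in wild-type IL-13 livers and 11.96, 11.96, 12.31 and 12.45 in wild-type EGFP livers. It was undetected on all 3 wild-type IL-13 arrays and abundant on the other 11. The difference was at least 6.71 (adjusted p = 1.35e-06). Serpina6, corticosteroid-binding globulin, differed by 4.45 ± 0.60 (SE, adjusted p = 0.000189), Upp2, a uridine phosphorylase, by 4.41 ± 0.48 (SE, adjusted p = 2.76e-05), and Gamt, of creatine synthesis, by 4.24 ± 0.32 (SE, adjusted p = 1.24e-06). Ces3b, a carboxylesterase, differed by 4.51 ± 0.91 (SE, adjusted p = 0.0041) with 2 of 3 probes passing, and did not pass in the sex-matched fit (2.86, adjusted p = 0.069).

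Of 27 measured hepatocyte markers, 4 had a higher response in Alb-Cre livers and 0 a lower one, with a median difference of 0.10. Their share of 14.8% is near the 13.2% of all genes. Alb differed by 1.31 ± 0.29 (SE, adjusted p = 0.00711), and by 0.93 without passing in the sex-matched fit. Among 30 genes of amino acid catabolism and the urea cycle, 6 had a higher response and 0 a lower one (20%), and in wild-type livers 20 fell. In the sex-matched fit 2 were higher and 0 lower, 6.67% against 9.16% of all genes. Of 21 hepatocyte transcription factors and nuclear receptors, 1 had a higher and 1 a lower response, a share of 9.52% against 13.2% of all genes. The higher one, Foxa2, a forkhead factor of liver, differed by 0.90 ± 0.27 (SE, adjusted p = 0.0394) and was not called in the sex-matched fit or in 9 of 14 fits that left out 1 array (adjusted p up to 0.0823, lowest difference 0.6 without Alb-Cre IL-13 replicate 1). The lower one, Creb3l3, a fasting-induced factor of the endoplasmic reticulum, differed by -0.77 ± 0.17 (SE, adjusted p = 0.00824). Hnf4a, a central hepatocyte regulator, differed by -0.10 (95% interval -0.45 to 0.24, adjusted p = 0.75), which did not pass. Of 42 oxidative phosphorylation subunits, 0 passed in either direction (limma, 2 at an unadjusted p under 0.05), with a median difference of -0.09 that turned slightly positive under the other scalings.

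Male-biased liver genes require the sex-linked pattern beside them. Of 23 measured, 9 had a higher response in Alb-Cre livers and 1 a lower one, with a median response of 1.47 in Alb-Cre livers and -0.06 in wild-type livers. The gene with the lower response was undetected in both EGFP groups and could only rise. In the sex-matched fit 3 were higher and 1 lower. Called in both fits were 3 higher and 0 lower, so the lower call there is another gene. Mup21, a major urinary protein, had 12.15, 11.18 and 13.18 log2 units in Alb-Cre IL-13 livers and 9.73, 8.90, 8.54 and 8.38 in Alb-Cre EGFP livers, against 5.42, 5.40 and 6.64 in wild-type IL-13 livers and 7.82, 8.69, 8.58 and 8.28 in wild-type EGFP livers. Wild-type IL-13 replicate 3, the array with Y-linked RNA, was the highest of its group and still below every EGFP array. Mup21 differed by 5.81 ± 0.60 (SE, adjusted p = 1.48e-05), and by 4.99 in the sex-matched fit (adjusted p = 0.000382). Selenbp2, a selenium-binding protein, had 12.36, 11.53 and 12.07 in Alb-Cre IL-13 livers and 8.99, 9.24, 9.25 and 8.92 in Alb-Cre EGFP livers, against 8.08, 7.08 and 8.66 in wild-type IL-13 livers and 9.02, 9.51, 9.29 and 9.18 in wild-type EGFP livers. It differed by 4.19 ± 0.39 (SE, adjusted p = 5.77e-06), and by 3.47 sex-matched. C4a, known as sex-limited protein, is a complement gene outside the list. It was undetected in Alb-Cre EGFP livers, differed by at least 1.76 (adjusted p = 0.00704) and was not called sex-matched. Of 21 female-biased genes, 2 had a higher and 2 a lower response, while 11 fell in Alb-Cre livers and 13 in wild-type livers. Among all genes 7.83% fell in Alb-Cre livers and 19.2% in wild-type livers. In the sex-matched fit 1 female-biased gene was higher and 1 lower, a share of 9.52% that is near the 9.16% of all genes. The Alb-Cre response of these lists, like that of every other gene, cannot be told apart from the sex-linked pattern.

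The growth hormone axis, which sets much of that bias, had 2 higher and 2 lower of 13 (2 and 2 in the sex-matched fit). The called share was 30.8% in each fit, against 13.2% of all genes and 9.16% in the sex-matched fit. Igfals, which carries IGF-I in blood, had 10.54, 10.31 and 10.57 log2 units in Alb-Cre IL-13 livers and 11.45, 11.20, 11.39 and 11.47 in Alb-Cre EGFP livers, against 8.32, 8.10 and 8.43 in wild-type IL-13 livers and 11.60, 11.37, 11.51 and 11.27 in wild-type EGFP livers. It fell in both genotypes and differed by 2.25 ± 0.17 (SE, adjusted p = 1.05e-06). Ghr, the growth hormone receptor, differed by 0.94 ± 0.25 (SE, adjusted p = 0.0216), with 1 of 2 probes passing, and did not pass without Alb-Cre IL-13 replicate 3 or wild-type IL-13 replicate 1 (adjusted p 0.0663 and 0.0528). Socs2, a feedback inhibitor of that receptor, differed by -1.90 ± 0.54 (SE, adjusted p = 0.031) in the other direction. It did not pass without Alb-Cre IL-13 replicate 2 or 3, wild-type IL-13 replicate 3 or wild-type EGFP replicate 1 or 2 (adjusted p 0.0563 to 0.0832).

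The opposite direction was led by fatty acid oxidation and targets of the nuclear receptor PPAR alpha, which is active in fasting. Cyp4a14, a fatty acid omega-hydroxylase, had 4.87, 8.53 and 7.23 log2 units in Alb-Cre IL-13 livers and 9.72, 9.50, 9.43 and 8.28 in Alb-Cre EGFP livers, against 13.71, 13.02 and 12.78 in wild-type IL-13 livers and 9.24, 7.71, 6.95 and 6.88 in wild-type EGFP livers. The wild-type IL-13 arrays were the 3 highest of the 14, and Alb-Cre IL-13 replicates spread over more than 3 log2 units. Its difference was -7.83 ± 0.97 (SE, adjusted p = 8.21e-05), from -2.36 in Alb-Cre livers and 5.47 in wild-type livers. Acot1, a cytosolic acyl-CoA thioesterase, had 7.70, 8.65 and 8.91 log2 units in Alb-Cre IL-13 livers and 10.67, 10.20, 10.78 and 9.94 in Alb-Cre EGFP livers, against 12.47, 11.75 and 11.94 in wild-type IL-13 livers and 10.97, 10.45, 10.12 and 10.25 in wild-type EGFP livers. Alb-Cre IL-13 arrays lay below both EGFP groups and wild-type IL-13 arrays above them. It differed by -3.59 ± 0.40 (SE, adjusted p = 3.46e-05).

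Of 34 measured genes of this list, 0 had a higher response in Alb-Cre livers and 17 a lower one (0 and 14 in the sex-matched fit). The median difference was -0.87, with -1.0 on the first BeadChip and -0.62 on the second. In Alb-Cre livers 0 rose and 21 fell, while in wild-type livers 17 rose and 4 fell. Cyp4a31, another fatty acid hydroxylase, differed by -4.33 ± 0.48 (SE, adjusted p = 3.01e-05). Pdk4, the kinase that shuts off pyruvate oxidation, responded by -0.44 in Alb-Cre livers and 3.07 in wild-type livers, a difference of -3.52 ± 0.50 (SE, adjusted p = 0.000278). Etfdh, which passes electrons from fatty acid oxidation to the respiratory chain, differed by -1.48 ± 0.16 (SE, adjusted p = 2.07e-05). Ppara itself responded by -0.97 in Alb-Cre livers and -1.41 in wild-type livers, a fall in both genotypes, and the difference of 0.44 (95% interval -0.081 to 0.96, adjusted p = 0.274) did not pass. Cpt1a, which admits fatty acids to mitochondria, differed by -0.35 (95% interval -0.76 to 0.071, adjusted p = 0.284), which did not pass.

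Fgf21, a fasting and stress hormone of the liver, had 4.60, 5.65 and 4.86 log2 units in Alb-Cre IL-13 livers and 6.52, 5.76, 6.13 and 5.99 in Alb-Cre EGFP livers, against 8.46, 9.85 and 8.09 in wild-type IL-13 livers and 5.11, 5.70, 5.12 and 5.24 in wild-type EGFP livers. The wild-type IL-13 arrays were the 3 highest. Alb-Cre IL-13 arrays lay below all Alb-Cre EGFP arrays and overlapped the wild-type EGFP arrays. Its response was -1.07 in Alb-Cre livers and 3.5 in wild-type livers. The difference was -4.57 ± 0.48 (SE, adjusted p = 1.73e-05). Klb, the co-receptor of FGF21, differed by -1.14 ± 0.21 (SE, adjusted p = 0.00224), and Irs2, an insulin receptor substrate, by -1.71 ± 0.38 (SE, adjusted p = 0.00774). Apoa4, a lipoprotein component induced by fat and fasting, responded by -0.19 in Alb-Cre livers and 3.16 in wild-type livers, a difference of -3.35 ± 0.25 (SE, adjusted p = 1.19e-06).

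Of 19 lipid droplet and fatty acid uptake genes, 7 had a lower response in Alb-Cre livers and 0 a higher one (5 and 0 in the sex-matched fit). Cidec, which enlarges lipid droplets, had 4.28, 5.13 and 4.99 log2 units in Alb-Cre IL-13 livers and 4.19, 4.42, 4.39 and 4.53 in Alb-Cre EGFP livers, against 8.71, 8.81 and 7.63 in wild-type IL-13 livers and 4.30, 4.89, 4.68 and 4.42 in wild-type EGFP livers. It was undetected on every Alb-Cre EGFP array, and under IL-13 its level differed by -3.58 between Alb-Cre and wild-type livers (adjusted p = 2.3e-07). Plin2, the main droplet coat protein of hepatocytes, had 8.24, 7.09 and 8.06 in Alb-Cre IL-13 livers and 8.81, 8.77, 8.74 and 9.12 in Alb-Cre EGFP livers, against 9.63, 10.06 and 9.69 in wild-type IL-13 livers and 8.73, 8.94, 8.18 and 8.31 in wild-type EGFP livers. It fell in Alb-Cre livers and rose in wild-type livers, a difference of -2.31 ± 0.34 (SE, adjusted p = 0.00036). Hilpda, a lipase inhibitor induced by hypoxia and fatty acids, differed by -1.86 ± 0.17 (SE, adjusted p = 5.08e-06).

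Stress response genes had more lower than higher responses in Alb-Cre livers. Of 32 genes of the unfolded protein and integrated stress responses, 1 had a higher and 9 a lower response (1 and 7 in the sex-matched fit), with a median difference of -0.39. In Alb-Cre livers 9 rose and 2 fell, and in wild-type livers 22 rose and 3 fell. Both EGFP groups were undetected for 1 of them, which could only rise. Among the other 31 genes, 9 rose in Alb-Cre livers and 21 in wild-type livers. Asns, asparagine synthetase and a target of ATF4, had 5.90, 8.29 and 6.89 log2 units in Alb-Cre IL-13 livers and 4.60, 4.55, 4.51 and 4.2 in Alb-Cre EGFP livers, against 9.29, 9.50 and 9.01 in wild-type IL-13 livers and 4.22, 4.27, 4.36 and 4.19 in wild-type EGFP livers. The IL-13 groups did not overlap. Wild-type EGFP arrays were undetected, and the difference was at least 2.19 in size, downward (adjusted p = 0.00427). Psat1, of serine synthesis, was at -2.66 in Alb-Cre against wild-type livers under IL-13 (adjusted p = 3.1e-05). Trib3, a pseudokinase of the same response, differed by -1.85 ± 0.21 (SE, adjusted p = 4.54e-05) and Nupr1, a stress-induced chromatin protein, by -1.83 ± 0.22 (SE, adjusted p = 6.33e-05). Chac1, which degrades glutathione, differed by -2.70 ± 0.79 (SE, adjusted p = 0.0356) and was not called in the sex-matched fit or in 8 of 14 fits that left out 1 array (adjusted p 0.0539 to 0.076). Igfbp1, an insulin-repressed binding protein, was undetected in Alb-Cre IL-13 livers and had a difference of at least 2.10 in size, downward (adjusted p = 0.0117).

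Every called type 2 immune gene had a lower response in Alb-Cre livers. Chil3, a chitinase-like protein of alternatively activated macrophages, had 9.06, 7.73 and 7.20 log2 units in Alb-Cre IL-13 livers and 4.14, 4.40, 4.11 and 4.12 in Alb-Cre EGFP livers, against 11.71, 11.91 and 12.10 in wild-type IL-13 livers and 4.36, 4.10, 4.14 and 4.15 in wild-type EGFP livers. The IL-13 groups were apart, and both EGFP groups were undetected, so no fold is given for either response. Under IL-13 its level in Alb-Cre against wild-type livers was -3.91 (adjusted p = 3.6e-07). Mrc1, the macrophage mannose receptor, had 9.51, 9.40 and 9.22 log2 units in Alb-Cre IL-13 livers and 8.88, 8.73, 8.62 and 9.08 in Alb-Cre EGFP livers, against 11.27, 11.33 and 11.37 in wild-type IL-13 livers and 8.89, 8.68, 8.70 and 8.82 in wild-type EGFP livers. All Alb-Cre IL-13 arrays lay above all EGFP arrays and below all wild-type IL-13 arrays. Mrc1 differed by -2.01 ± 0.16 (SE, adjusted p = 2.29e-06).

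Of 17 measured type 2 immune genes, 10 had a lower response in Alb-Cre livers and 0 a higher one (9 and 0 in the sex-matched fit). In 10 of the 17 both EGFP groups were undetected, so these passed the detection filter only through IL-13 arrays and could only rise, and 7 of the 10 lower calls are among them. Of the other 7 genes, 5 rose in Alb-Cre livers and 6 in wild-type livers, 0 fell in either, and 3 had a lower response in Alb-Cre livers. Ccl11, the eosinophil chemokine eotaxin, had 7.57, 8.20 and 7.51 in Alb-Cre IL-13 livers and 4.73, 4.95, 4.94 and 4.93 in Alb-Cre EGFP livers, against 9.52, 10.35 and 10.50 in wild-type IL-13 livers and 4.86, 4.61, 4.76 and 4.50 in wild-type EGFP livers. It differed by -2.57 ± 0.29 (SE, adjusted p = 3.83e-05). Mgl2, a macrophage lectin, differed by -1.94 ± 0.16 (SE, adjusted p = 1.87e-06). Ccl24, another eotaxin, differed by -0.34 (95% interval -1.10 to 0.42, adjusted p = 0.607), and Arg1, the arginase of both hepatocytes and macrophages, by -0.26 (95% interval -0.66 to 0.14, adjusted p = 0.42), and neither passed.

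Retnla, a resistin-like protein of alternatively activated macrophages, had 11.79, 12.01 and 11.16 log2 units in Alb-Cre IL-13 livers and 4.26, 4.25, 4.32 and 4.28 in Alb-Cre EGFP livers, against 12.39, 12.24 and 11.80 in wild-type IL-13 livers and 4.23, 4.28, 4.28 and 4.30 in wild-type EGFP livers. The EGFP groups were undetected, and Alb-Cre IL-13 and wild-type IL-13 arrays overlapped. Under IL-13 the level in Alb-Cre against wild-type livers was -0.49, which did not pass (adjusted p = 0.0618). Il13ra2, the decoy receptor for IL-13, was undetected under EGFP, with 6.45, 6.54 and 6.13 in Alb-Cre IL-13 livers and 5.84, 6.49 and 6.19 in wild-type IL-13 livers. Those values overlapped. Cish, a STAT-induced feedback inhibitor, responded by 3.54 in Alb-Cre livers and 3.41 in wild-type livers, and the difference of 0.13 (95% interval -0.57 to 0.84, adjusted p = 0.849) did not pass. Of 15 receptor and signalling genes, 0 had a higher and 2 a lower response in Alb-Cre livers, a share of 13.3% that is near the 13.2% of all genes. In the sex-matched fit 0 were higher and 3 lower, 20% against 9.16% of all genes. Stat6 differed by 0.042 (95% interval -0.34 to 0.42, adjusted p = 0.917), Il13ra1 by -0.039 (95% interval -0.68 to 0.60, adjusted p = 0.956) and Tyk2, a receptor-bound kinase, by 0.41 (95% interval 0.093 to 0.73, adjusted p = 0.0851). None of the 3 passed, although Tyk2 did without wild-type IL-13 replicate 1 (adjusted p = 0.0473).

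Aoc1, a diamine oxidase that degrades histamine and putrescine, had 6.62, 6.90 and 6.49 log2 units in Alb-Cre IL-13 livers and 4.32, 4.60, 4.75 and 4.67 in Alb-Cre EGFP livers, against 9.22, 9.74 and 8.82 in wild-type IL-13 livers and 4.42, 4.48, 4.48 and 4.58 in wild-type EGFP livers. It rose in both genotypes, and the IL-13 groups did not overlap. The difference was -2.68 ± 0.24 (SE, adjusted p = 5.08e-06). The promoters of Aoc1, Cidec and Retnla are printed because all 3 hold a STAT6 motif, TTC and GAA with 4 bases of any kind between them, and they differ in how the genotypes responded. The sequences are the 250 bases before each RefSeq start (GRCm38.p6), 5′ to 3′ on the gene's strand, with the motif in capitals. They were picked after the values were seen.

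Aoc1, chr6:48895005-48895254, plus strand: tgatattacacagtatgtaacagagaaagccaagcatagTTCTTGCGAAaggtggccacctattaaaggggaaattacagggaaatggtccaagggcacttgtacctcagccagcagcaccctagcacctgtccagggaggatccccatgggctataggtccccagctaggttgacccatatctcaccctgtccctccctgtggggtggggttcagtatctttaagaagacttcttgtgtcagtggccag
Cidec, chr6:113434765-113435014, minus strand: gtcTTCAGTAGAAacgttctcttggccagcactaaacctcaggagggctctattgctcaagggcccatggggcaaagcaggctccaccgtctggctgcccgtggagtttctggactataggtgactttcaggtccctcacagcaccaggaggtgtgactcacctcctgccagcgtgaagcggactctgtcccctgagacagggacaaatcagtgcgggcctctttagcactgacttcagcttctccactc
Retnla, chr16:48842359-48842608, plus strand: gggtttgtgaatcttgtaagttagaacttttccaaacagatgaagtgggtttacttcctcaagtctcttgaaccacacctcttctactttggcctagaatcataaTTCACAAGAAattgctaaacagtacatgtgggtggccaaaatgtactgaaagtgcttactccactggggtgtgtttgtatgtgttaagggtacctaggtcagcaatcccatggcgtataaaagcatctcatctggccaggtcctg

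The motif was sought on both strands, where it reads alike, and it overlapped the sterol motif named next in 0 promoters. It stood in the 250 bases before 438 of 7877 tested genes with a promoter entry (5.56%). The shares were 36 of 504 (7.14%) for genes with a higher Alb-Cre response and 29 of 505 (5.74%) for those with a lower one. The sterol regulatory motif TCACNCCAC, on either strand, stood before 101 of 7877 genes (1.28%), 12 of the 504 (2.38%), 3 of the 505 (0.594%) and 1 of 13 cholesterol synthesis genes, Hmgcs1. A match is a description of letters and not a binding site.

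Cd14, the endotoxin co-receptor of macrophages and, in inflammation, of hepatocytes, had 6.50, 6.29 and 5.95 log2 units in Alb-Cre IL-13 livers and 5.17, 5.51, 5.37 and 5.74 in Alb-Cre EGFP livers, against 11.36, 11.27 and 12.58 in wild-type IL-13 livers and 5.77, 5.59, 5.95 and 5.38 in wild-type EGFP livers. Alb-Cre IL-13 replicate 3 was level with the highest EGFP array, and wild-type IL-13 arrays far above all others. The difference was -5.27 ± 0.36 (SE, adjusted p = 5.53e-07). Ly6d, a surface antigen known from B cell precursors, was undetected under EGFP and had 4.91, 9.65 and 8.16 in Alb-Cre IL-13 livers and 11.78, 12.33 and 12.25 in wild-type IL-13 livers. Alb-Cre IL-13 replicate 1 was near background. Under IL-13 the level in Alb-Cre against wild-type livers was -4.55 (adjusted p = 0.000373).

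**Figure D4:**
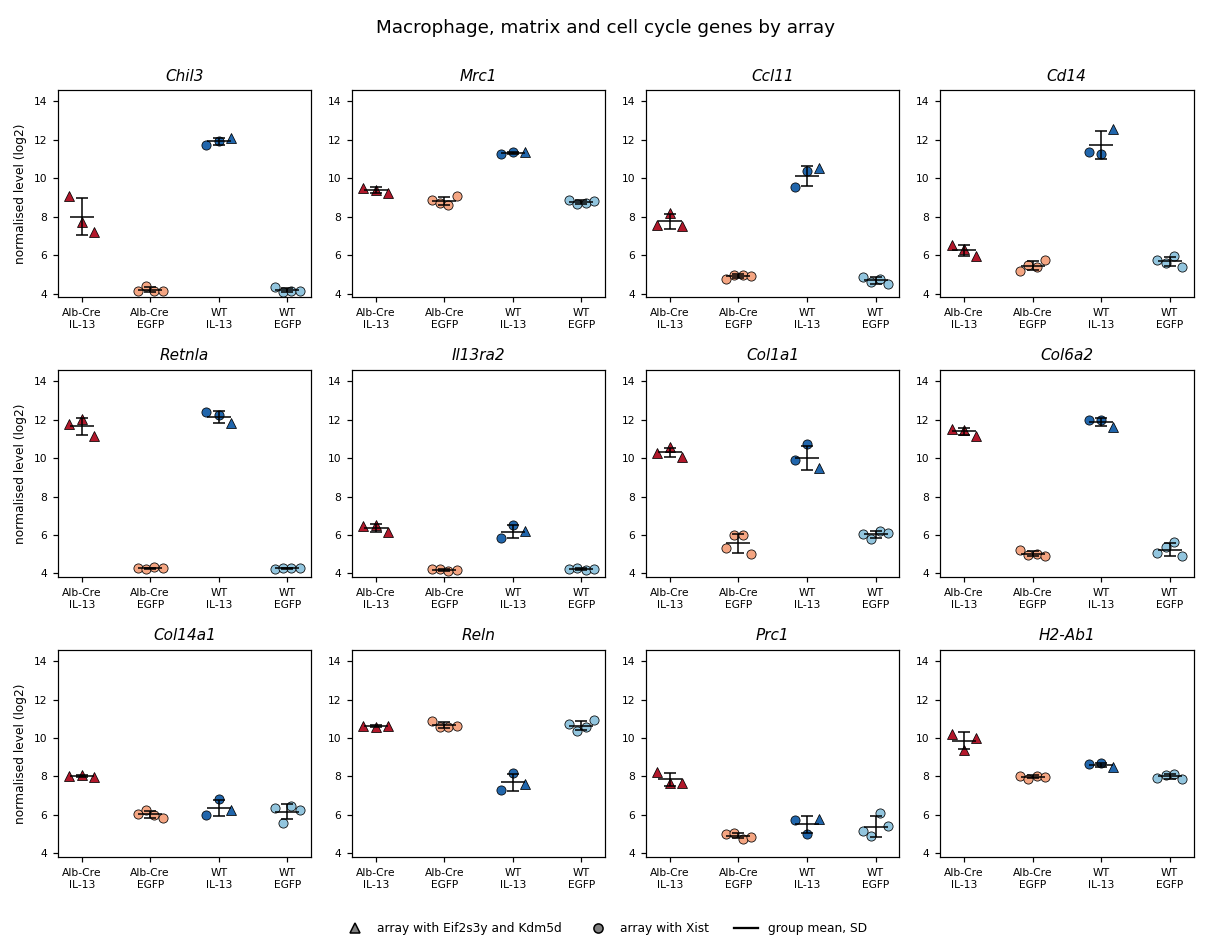
Normalised level (log2) of 12 macrophage, matrix, stellate cell, cell cycle and antigen presentation genes on each array by group, drawn as in the plot of hepatocyte genes. In the first row wild-type IL-13 arrays lie above Alb-Cre IL-13 arrays, in the second row both IL-13 groups lie close together and above the EGFP groups, and in Col14a1, Prc1 and H2-Ab1 the Alb-Cre IL-13 arrays lie highest.

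Macrophage lists moved in both directions. Of 17 monocyte and infiltrating macrophage markers, 3 had a higher and 6 a lower response in Alb-Cre livers (0 and 5 in the sex-matched fit), and the median response was 0.80 in both genotypes. Both EGFP groups were undetected for 1 of them, which could only rise. Among the other 16 markers, 3 had a higher and 5 a lower response. Ccl6, a macrophage chemokine, differed by -2.50 ± 0.22 (SE, adjusted p = 4.31e-06). Of 14 Kupffer cell markers, 1 was higher and 2 lower (1 and 2 in the sex-matched fit). The called share was 21.4% in each fit, against 13.2% of all genes and 9.16% in the sex-matched fit. Clec4f, a lectin specific to Kupffer cells, had 8.64, 7.97 and 8.70 log2 units in Alb-Cre IL-13 livers and 8.28, 8.59, 8.45 and 8.69 in Alb-Cre EGFP livers, against 5.60, 6.30 and 7.0 in wild-type IL-13 livers and 8.63, 8.63, 8.56 and 8.24 in wild-type EGFP livers. It was low on the wild-type IL-13 arrays alone and differed by 2.15 ± 0.36 (SE, adjusted p = 0.000895), with 1 of 2 probes passing. Cd163, a haemoglobin scavenger receptor, differed by -1.78 ± 0.30 (SE, adjusted p = 0.00117). Of 13 neutrophil markers, 11 rose in Alb-Cre livers and 10 in wild-type livers. Both EGFP groups were undetected for 2 of them, which could only rise. Among the other 11 markers, 9 rose in Alb-Cre livers and 8 in wild-type livers. The share called for the difference of responses was 7.69%, against 13.2% of all genes. The 1 marker with a higher Alb-Cre response was Il1b, an inflammatory cytokine, with 1.61 ± 0.38 (SE, adjusted p = 0.0113), and it was not called in the sex-matched fit.

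All 7 measured MHC class II genes, which present antigen to T cells, rose in Alb-Cre livers and 5 rose in wild-type livers. The response was higher in Alb-Cre livers for 5 of the 7, and for 5 in the sex-matched fit, with a median difference of 0.92. H2-Ab1 had 10.21, 9.35 and 9.98 log2 units in Alb-Cre IL-13 livers and 8.04, 7.89, 8.03 and 7.97 in Alb-Cre EGFP livers, against 8.64, 8.70 and 8.50 in wild-type IL-13 livers and 7.94, 8.09, 8.14 and 7.88 in wild-type EGFP livers. Every Alb-Cre IL-13 array lay above every wild-type IL-13 array. H2-Ab1 differed by 1.26 ± 0.22 (SE, adjusted p = 0.00139), Cd74, the invariant chain, by 1.08 ± 0.20 (SE, adjusted p = 0.00206) and H2-DMb1, a peptide-loading chain, by 0.92 ± 0.21 (SE, adjusted p = 0.0108).

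Interferon-stimulated genes, an antiviral programme, fell in wild-type livers. Of 30 measured, 15 had a higher response in Alb-Cre livers and 0 a lower one (8 and 1 in the sex-matched fit), with a median difference of 0.65 (0.71 and 0.80 on the BeadChips). In Alb-Cre livers 0 rose and 6 fell, and in wild-type livers 2 rose and 22 fell. Oas2, an antiviral oligoadenylate synthetase, had 6.29, 5.87 and 6.51 log2 units in Alb-Cre IL-13 livers and 5.89, 6.41, 6.28 and 6.22 in Alb-Cre EGFP livers, against 4.87, 4.67 and 4.62 in wild-type IL-13 livers and 6.55, 6.43, 6.50 and 6.48 in wild-type EGFP livers. Wild-type IL-13 arrays lay below all others, which overlapped. Oas2 differed by 1.80 ± 0.21 (SE, adjusted p = 4.28e-05), Oasl2 by 1.47 ± 0.19 (SE, adjusted p = 0.000109), Irf9, a subunit of the interferon transcription complex, by 1.21 ± 0.21 (SE, adjusted p = 0.00125) and Ifit3 by 1.94 ± 0.34 (SE, adjusted p = 0.00147). For Oasl2 and Irf9 1 of 2 probes passed, and for Ifit3 1 of 3. Gbp3, a guanylate-binding protein, fell in both genotypes and differed by 1.48 ± 0.32 (SE, adjusted p = 0.00745), without passing in the sex-matched fit.

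Of 29 measured acute phase genes, 0 had a higher and 4 a lower response in Alb-Cre livers, a share of 13.8% that is near the 13.2% of all genes. In the sex-matched fit 0 were higher and 8 lower, 27.6% against 9.16% of all genes. Lbp, lipopolysaccharide-binding protein, differed by -1.47 ± 0.40 (SE, adjusted p = 0.0243), and it did not pass without Alb-Cre IL-13 replicate 2 or 3, wild-type IL-13 replicate 3 or wild-type EGFP replicate 3 (adjusted p 0.0507 to 0.0721). Serpina3n, a protease inhibitor, differed by -0.72 ± 0.17 (SE, adjusted p = 0.0122). Saa1, serum amyloid A, differed by 0.80 (95% interval -1.58 to 3.18, adjusted p = 0.712), Lcn2, lipocalin 2, by -1.28 (95% interval -3.99 to 1.44, adjusted p = 0.582) and Orm2, orosomucoid, by -0.059 (95% interval -2.03 to 1.92, adjusted p = 0.981). None of these 3 passed, and their intervals span several log2 units. Hamp, the iron hormone hepcidin, differed by -1.08 (95% interval -2.38 to 0.21, adjusted p = 0.279), and its copy Hamp2 by 1.95 (95% interval 0.36 to 3.53, adjusted p = 0.101). Neither passed, although Hamp2 did without Alb-Cre IL-13 replicate 1 or Alb-Cre EGFP replicate 4 (adjusted p 0.0416 and 0.0241). Hamp2 had 5.65, 6.61 and 7.67 log2 units in Alb-Cre IL-13 livers and 11.54, 12.19, 11 and 13.46 in Alb-Cre EGFP livers, against 6.08, 5.41 and 5.15 in wild-type IL-13 livers and 13.13, 12.01, 13.51 and 12.94 in wild-type EGFP livers. Every IL-13 array lay below every EGFP array in both genotypes.

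Matrix genes rose in both genotypes. Of 34 measured, 30 rose in Alb-Cre livers and 29 in wild-type livers, with a median response of 1.97 in Alb-Cre livers and 1.85 in wild-type livers. Both EGFP groups were undetected for 4 of them, which could only rise, and of the other 30 genes 27 rose in Alb-Cre livers and 27 in wild-type livers. The difference was higher for 7 and lower for 5 (8 and 4 in the sex-matched fit), with a median of 0.32. Col1a1, a chain of type I collagen, had 10.24, 10.56 and 10.08 log2 units in Alb-Cre IL-13 livers and 5.30, 5.99, 6.0 and 5.01 in Alb-Cre EGFP livers, against 9.90, 10.71 and 9.47 in wild-type IL-13 livers and 6.05, 5.79, 6.22 and 6.09 in wild-type EGFP livers. The IL-13 groups overlapped, and the difference of 0.73 (95% interval -0.078 to 1.54, adjusted p = 0.236) did not pass. Col6a2, of microfibrillar collagen VI, had 11.52, 11.48 and 11.17 log2 units in Alb-Cre IL-13 livers and 5.22, 4.97, 5.02 and 4.90 in Alb-Cre EGFP livers, against 11.99, 11.96 and 11.64 in wild-type IL-13 livers and 5.08, 5.35, 5.65 and 4.89 in wild-type EGFP livers. The Alb-Cre IL-13 arrays lay just below the wild-type IL-13 arrays, and the difference of -0.26 (95% interval -0.75 to 0.23, adjusted p = 0.528) did not pass. Col3a1 differed by 0.66 (95% interval -0.023 to 1.35, adjusted p = 0.203), and 1 of its 2 probes passed although the brighter one used here did not. Without wild-type IL-13 replicate 2 it passed (0.96, adjusted p = 0.0405). Lox, which cross-links collagen, was undetected under EGFP, and its IL-13 levels differed by -0.19 (adjusted p = 0.443).

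Other matrix genes did differ. Col14a1, a fibril-associated collagen, had 8.03, 8.06 and 7.95 log2 units in Alb-Cre IL-13 livers and 6.06, 6.26, 5.97 and 5.85 in Alb-Cre EGFP livers, against 6.0, 6.82 and 6.27 in wild-type IL-13 livers and 6.35, 5.58, 6.48 and 6.26 in wild-type EGFP livers. It rose in Alb-Cre livers alone, and the difference was 1.78 ± 0.29 (SE, adjusted p = 0.000772). Mmp13, an interstitial collagenase, responded by 1.43 in Alb-Cre livers and -0.42 in wild-type livers and differed by 1.85 ± 0.27 (SE, adjusted p = 0.000418), with 1 of 2 probes passing. Lum, the proteoglycan lumican, rose in both genotypes and differed by -1.54 ± 0.30 (SE, adjusted p = 0.00298). Timp1, a metalloproteinase inhibitor, differed by -1.07 ± 0.21 (SE, adjusted p = 0.00326) and Mmp14, a membrane metalloproteinase, by -1.17 ± 0.21 (SE, adjusted p = 0.00206).

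Of 15 stellate cell and myofibroblast markers, 1 had a higher and 3 a lower response in Alb-Cre livers (1 and 2 in the sex-matched fit). The called share was 26.7% against 13.2% of all genes, and 20% against 9.16% in the sex-matched fit. Reln, the glycoprotein reelin made by stellate cells, had 10.63, 10.55 and 10.65 log2 units in Alb-Cre IL-13 livers and 10.88, 10.57, 10.56 and 10.63 in Alb-Cre EGFP livers, against 7.28, 8.19 and 7.59 in wild-type IL-13 livers and 10.70, 10.35, 10.55 and 10.91 in wild-type EGFP livers. It was low on the wild-type IL-13 arrays alone, a difference of 2.89 ± 0.25 (SE, adjusted p = 3.3e-06). Cygb, the globin of quiescent stellate cells, rose in both genotypes and differed by -2.25 ± 0.34 (SE, adjusted p = 0.000439), and Pdgfra, a growth factor receptor, differed by -1.01 ± 0.24 (SE, adjusted p = 0.0109). Acta2, smooth muscle actin, responded by 2.91 in Alb-Cre livers and 2.21 in wild-type livers, and the difference of 0.70 (95% interval -0.49 to 1.88, adjusted p = 0.475) did not pass. Of 21 endothelial markers, 0 were higher and 2 lower, a share of 9.52% against 13.2% of all genes. Vwf, von Willebrand factor, had 8.15, 8.21 and 7.95 log2 units in Alb-Cre IL-13 livers and 5.79, 5.92, 6.09 and 5.40 in Alb-Cre EGFP livers, against 9.18, 9.62 and 10.09 in wild-type IL-13 livers and 5.84, 5.57, 5.87 and 5.86 in wild-type EGFP livers. It rose in both genotypes and differed by -1.54 ± 0.27 (SE, adjusted p = 0.0013).

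Cell cycle genes rose in Alb-Cre livers. Of 31 measured, 16 had a higher response there and 0 a lower one (10 and 0 in the sex-matched fit), with a median difference of 0.57 (0.55 and 0.71 on the BeadChips). In Alb-Cre livers 20 rose and 1 fell, and in wild-type livers 3 rose and 6 fell. Both EGFP groups were undetected for 1 of them, which could only rise. Among the other 30 genes, 15 had a higher response, and 19 rose in Alb-Cre livers. Prc1, which builds the mitotic midzone, had 8.24, 7.68 and 7.66 log2 units in Alb-Cre IL-13 livers and 5.03, 5.05, 4.75 and 4.87 in Alb-Cre EGFP livers, against 5.75, 4.99 and 5.80 in wild-type IL-13 livers and 5.15, 4.89, 6.11 and 5.43 in wild-type EGFP livers. Every Alb-Cre IL-13 array lay above all others. Prc1 differed by 2.81 ± 0.36 (SE, adjusted p = 9.64e-05) and Birc5, survivin, by 1.62 ± 0.20 (SE, adjusted p = 6.58e-05). Top2a, the topoisomerase of dividing cells, was undetected in Alb-Cre EGFP livers and its difference was at least 1.16 (adjusted p = 0.000375), while Pbk, a mitotic kinase outside the list and undetected in the same group, differed by at least 1.21 (adjusted p = 0.00108). Cdk1, the mitotic kinase, differed by 1.30 ± 0.29 (SE, adjusted p = 0.00786) without passing in the sex-matched fit.

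Smaller lists add the following, beside 13.2% of all genes called. The called share was 13.3% for clock genes, 14.3% for erythroid genes, 7.14% for iron handling genes and 16.7% for T and NK cell markers. It was 31.6% for injury and fetal hepatocyte genes, 35.3% for NRF2 targets, 20% for cholangiocyte markers and 40% for B and plasma cell markers. Of 19 injury and fetal hepatocyte genes, 13 rose in Alb-Cre livers and 15 in wild-type livers (2 were undetected in both EGFP groups and could only rise). Among all genes 11.1% rose in Alb-Cre livers and 21.5% in wild-type livers. Of the 19, 6 had a lower response in Alb-Cre livers. The sex-matched fit called 2, a share of 10.5% that is near the 9.16% of all genes. Of 17 NRF2 targets, 2 were higher and 4 lower. Of 15 clock genes, 2 were higher, the output factor Dbp with 1.56 ± 0.44 (SE, adjusted p = 0.0274) and the core repressor Per2 with 1.47 ± 0.35 (SE, adjusted p = 0.0124). Dbp passed neither in the sex-matched fit nor in 6 of 14 fits that left out 1 array (adjusted p 0.0517 to 0.074), and time of day was not given. Of 7 erythroid genes, 1 was higher, Alas2, the first enzyme of erythroid haem synthesis, also on the male-biased list, with 2.06 ± 0.52 (SE, adjusted p = 0.016), not called in the sex-matched fit or without Alb-Cre IL-13 replicate 3 (adjusted p = 0.0505). Of 10 cholangiocyte markers, 1 was higher and 1 lower. Of 14 iron handling genes 1 was higher, of 6 T and NK cell markers 1, of 5 B and plasma cell markers 2, and of 2 eosinophil markers 0, with none lower. Of the 2 eosinophil markers 1 had an unadjusted p under 0.05. The sex-linked list had 0 calls of 4 (3 at an unadjusted p under 0.05), and 3 calls without wild-type IL-13 replicate 3, which carried Y-linked RNA. These were Eif2s3y at 2.33 (adjusted p = 1.01e-07), Kdm5d at 0.497 (adjusted p = 0.0181) and Xist at -1.87 (adjusted p = 3.53e-05).

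**Figure D5:**
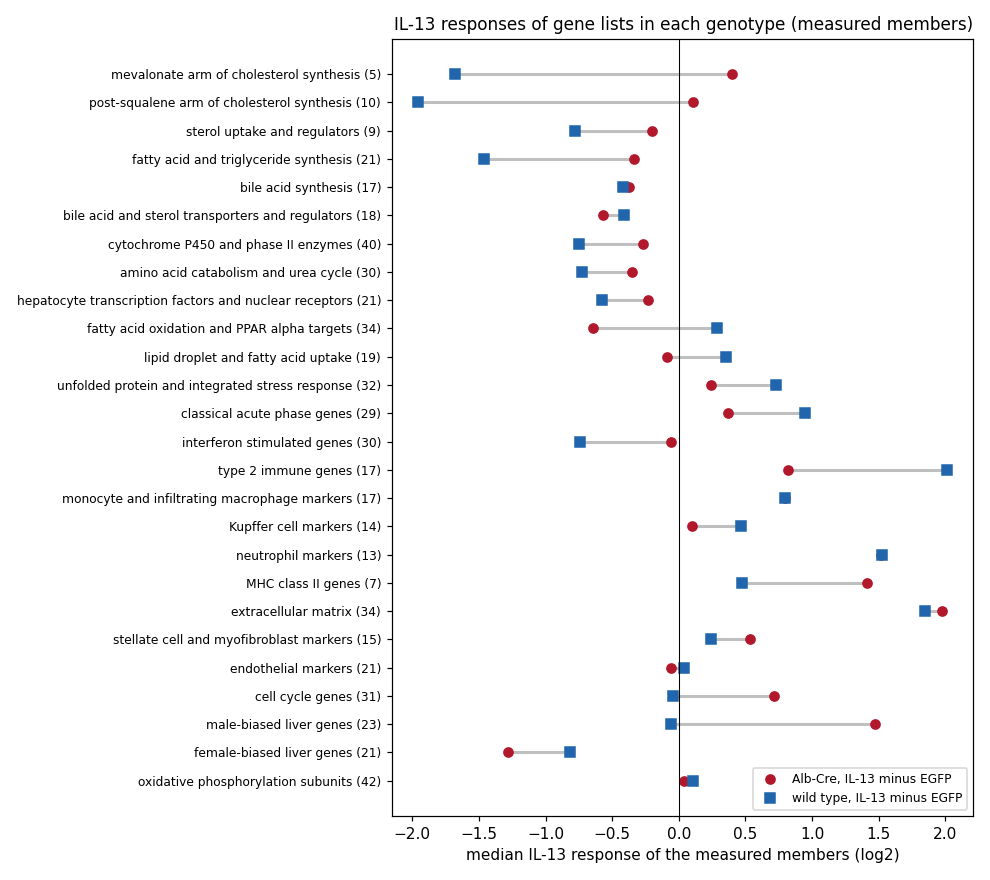
Median IL-13 response (log2, IL-13 minus EGFP) of 26 gene lists in Alb-Cre livers (red circles) and wild-type livers (blue squares), joined by a line, with the number of measured members in brackets. Both cholesterol synthesis lists have the longest lines, with wild type below Alb-Cre, while neutrophil and monocyte markers have both symbols at the same place.

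Of the 12 most negative differences, 3 remain to be described. Serpina7, thyroxine-binding globulin, differed by -2.63 ± 0.27 (SE, adjusted p = 1.26e-05), Pmm1, a phosphomannomutase, by -3.18 ± 0.44 (SE, adjusted p = 0.000244), and Rcan2, a calcineurin regulator, by -2.77 ± 0.78 (SE, adjusted p = 0.029). Rcan2 did not pass in the sex-matched fit (-2.75, adjusted p = 0.107), nor in 4 of 14 fits that left out 1 array (adjusted p 0.0542 to 0.0585). Of the 100 called genes named here, 82 passed in the sex-matched fit, and 10 lost the call in at least 1 fit that left out an array. Over all 1277 calls the share that passed in the sex-matched fit was 52.2%. The named genes were chosen in part for large differences and small p-values, so their share does not stand for all calls. The part of depth, RNA quality and the other-cell markers above in any of these results was not tested.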

How the data were processed

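The authors deposited 1 table of probe intensity with detection p-values, with GenomeStudio 2011.1 named in the submitters' processing notes, and 1 table of log2 values. Setting the tables against each other showed that the authors' log2 values are the log of the intensity times 1 factor per array that puts its median at 500. The detection p-value is the deposited one. Intensities were background-corrected and quantile-normalised with limma's neqc (limma 3.58.1, R 4.3.3, offset 16), which infers the negative controls from the detection p-values. Of 25697 probes, 23978 had 1 gene symbol in the platform annotation and 1719 none, and 23962 matched RefSeq gene identifiers (GRCm38.p6). Probes detected (p under 0.05) on at least 3 arrays were kept, 14109 in all. Of these 13274 had a symbol and 835 did not and were left out, and the brightest probe stood for each of 9711 genes (2570 had several).

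One limma model with 4 group means (10 residual degrees of freedom, two-sided, Benjamini-Hochberg over all 9711 genes, threshold 0.05) gave the difference of responses and its parts. The sex-matched fit added the sex-linked pattern as a term (9 residual degrees of freedom). The median standard error of a difference was 0.188 log2 units and the smallest called difference 0.399, and the number of arrays limits this precision. A probe undetected on every array of a group has only a bound there, and a fold that rests on it is given as at least the value against the lowest signal among detected probes. Named genes were the 12 most positive and 12 most negative called differences among genes detected in every group, the 5 most extreme each way among those undetected in a group, the 3 smallest p-values of each of 39 lists and a fixed set, and the text prints 127 of them. Members, lists and tests were chosen with earlier results of these data known. The alternatives were other background corrections and scalings, detection filters, probe rules, BeadChip and replicate blocks, array weights, a variance trend, each array left out and the sex-linked term. The model was tested on simulated data.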

Additional observations from a re-analysis of the deposited data

Results flagged for a closer look

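The difference of responses is itself an interaction term, and it passed for 1277 genes. Among the named genes, 14 groups of 4 arrays of 254 had 1 array far from the other 3, by Dixon's criterion at the 95% level, and chance flags about 1 group in 20. All lay in EGFP groups, since groups of 3 were not tested. Levels are in log2 units.

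In Alb-Cre EGFP livers, replicate 1 had 10.55 for Mlxipl (others 10.31 to 10.33), 8.849 for Cyp2c29 (9.21 to 9.271), 10.33 for Etfdh (9.988 to 10.03), 9.482 for Socs2 (7.753 to 7.971) and 4.734 for Ccl11 (4.933 to 4.952). Replicate 2 had 5.519 for Fasn (4.638 to 4.736) and 4.404 for Chil3 (4.115 to 4.143), and replicate 3 had 5.808 for Stat6 (5.556 to 5.581).

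In wild-type EGFP livers, replicate 1 had 4.361 for Chil3 (4.102 to 4.146), 5.649 for Pmm1 (5.024 to 5.101) and 6.881 for Serpina7 (7.165 to 7.211). Replicate 2 had 5.565 for Vwf (5.843 to 5.874). Replicate 3 had 6.438 for Cygb (6.976 to 7.084) and 9.394 for Creb3l3 (9.746 to 9.768). Chil3 was undetected in both EGFP groups, so its 2 values lie at background.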

How the results depend on the processing

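Against 1277 calls with all arrays, leaving out each array in turn gave between 869 (without Alb-Cre IL-13 replicate 3) and 1349 (without wild-type IL-13 replicate 3), of which 848 and 1093 were among the 1277. The count lay between 904 and 1632 under the other settings with all 14 arrays but for the sex-matched fit, which gave 890. Calls of a lower response numbered 318 with median centring, 273 with the authors' deposited log2 values and 410 in the sex-matched fit, against 631. The first BeadChip alone gave 226 calls (112 higher, 114 lower) and the second alone 597 (333 higher, 264 lower), each from fewer arrays. On the second, each IL-13 group is 1 array, so the spread comes from the EGFP arrays alone. Under median centring the median difference of all genes was 0.08, against -0.01. Saa1, which did not pass at 0.80, had -2.30 on the second BeadChip alone (adjusted p = 0.00461), which leaves out the spread between IL-13 arrays, and the cause was not tested. Of the 127 named genes, the sex-matched fit lost 18 calls, the first BeadChip alone 50, the second alone 15 and the deposited log2 values 8.

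Replicate numbers are those of the sample titles. The description field numbers wild-type IL-13 livers differently and gives 3 to 2 of the 3, so its numbers were not used. No clear pairing by title number was seen. Over 19 pairs with the same number the correlation of deviations ran between -0.121 and 0.283, with 3 pairs above 0.1. Of 14 arrays, 6 correlated best with their own number. The number to be met by chance was not computed, so these values neither show nor exclude a pairing. With the replicate block 1240 genes were called. Probes at background, deletion of Il4ra and the sex of each mouse limit what these arrays show, and the wild-type IL-13 side of the sex-matched fit is 1 array.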
